A study of Homo sapiens with 5 samples.

Results

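The genes of the 7 sirtuins (SIRT1 to SIRT7) and of 3 class I histone deacetylases (HDAC1, HDAC2 and HDAC3) were examined for CUT&Tag peaks in HepG2 cells, a human liver cancer line. The 10 genes were taken by name out of 20037 protein-coding genes of RefSeq, and all 10 were found there. Peaks were counted for a gene when they overlapped the gene or the 1 kb beyond either of its ends. Gene-end peaks are those that overlapped the window reaching 1 kb to each side of an end, and the remaining peaks are called internal. There was 1 library for each of 5 targets: Flag-tagged ENL with the Y78A substitution, Flag-tagged wild type ENL, and histone H3 that is β-hydroxybutyrylated (H3K9bhb), acetylated (H3K9ac) or crotonylated (H3K9cr) at lysine 9. The design text describes stable expression of Flag-tagged ENL in the HepG2 cells. It names Flag or H3K9bhb antibodies for the pull-down. The level of the tagged proteins and their promoter are not stated in the labels. Whether the HepG2 cells of the H3K9ac and H3K9cr libraries expressed a tagged ENL is not stated there either. With a single library per target no difference between libraries has a replicate check.

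Sirtuins are NAD-dependent enzymes that take acyl groups off lysines, whereas class I histone deacetylases use zinc. HDAC1, HDAC2, HDAC3, SIRT1, SIRT2 and SIRT3 have been reported to remove β-hydroxybutyryl groups from lysines, at least in enzyme assays, so these are genes of candidate erasers of the mark that ENL was asked to read. In liver, β-hydroxybutyrate rises on fasting, and the compound is also known as an inhibitor of class I histone deacetylases. ENL binds acylated lysines through a YEATS domain and travels with transcription elongation complexes, and Y78A changes a residue of its acyl-lysine pocket. The peaks describe proteins and marks on the chromatin of these genes. They do not measure the activity of the encoded enzymes.

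The lists held 5422 peaks for Y78A, 11394 for wild type ENL, 9176 for H3K9bhb, 31493 for H3K9ac and 3852 for H3K9cr on the standard chromosomes. Read totals are unknown, and the significance needed to enter a list differed between lists. Peak names in the H3K9ac list begin with ENL1, which goes against its label, and the label was used. Those in the H3K9cr list begin with CRWT, and its label was used too. Fragments at the summit of a peak were recovered from the deposited fold and −log10 p, and came out whole for all 48 peaks at the 10 genes. The weakest listed summit held 8 fragments in the Y78A, wild type ENL and H3K9bhb lists. It held 9 in the H3K9ac list and 10 in the H3K9cr list. An absent peak means only that the summit did not pass the caller's threshold. Strength is given as the percentile of a peak's −log10 p among all peaks of its own list, since values of different lists were not made comparable. Of 16 hepatocyte marker genes 11 had a gene-end H3K9ac peak, among them the apolipoprotein genes APOB, APOA2 and APOA1, but ALB and AFP had none. That is 68.8% of the list, against 56.4% of all coding genes, so the count says little about cell identity. Of 10 marker genes of other tissues 2 had one (20%), PECAM1 and SFTPC.

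Every deacylase gene carried H3K9ac at a gene end, and the ENL proteins and H3K9bhb were present at only some of them. H3K9ac was found at 10 of 10 genes, with only a weak peak at SIRT7 (percentile 6.15), against 56.4% of all protein-coding genes. Wild type ENL was found at 6 of 10 (SIRT1, SIRT2, SIRT4, SIRT5, SIRT7 and HDAC1), against 28.6% of coding genes. The SIRT7 peaks of wild type ENL and H3K9ac lay within 1 kb of the gene but outside it. Y78A was found at 3 of 10 (SIRT2, SIRT4 and SIRT5), against 14.6%. H3K9bhb was found at 4 of 10 (SIRT2, SIRT5, HDAC1 and HDAC3), against 23.8%, and H3K9cr at 1 of 10 (SIRT5), against 4.49%. Among coding genes with H3K9ac at a gene end the shares were 25.6% for Y78A, 49.7% for wild type ENL, 41.6% for H3K9bhb and 7.78% for H3K9cr. The counts for the 10 deacylase genes, all of which have H3K9ac, lie near these shares. With 10 genes and 1 library per target, whether the deacylase genes differ from other acetylated genes was not tested.

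**Figure D1:**
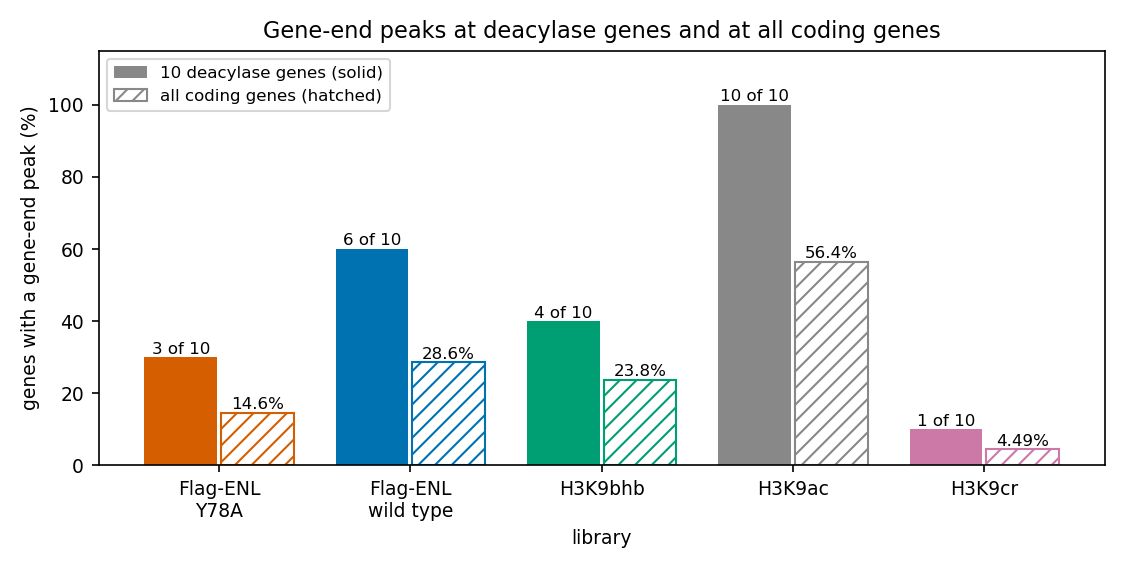
Percent of genes with a gene-end peak (y axis) in each library (x axis), for the 10 deacylase genes (solid bars) and for all 20037 protein-coding genes (hatched bars). The deacylase bars stand above the hatched bars in each list, with 10 of 10 genes for H3K9ac and 1 of 10 for H3K9cr.

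The genes formed 7 combinations of gene-end peaks. SIRT5 had all 5, a combination found at 3.31% of coding genes. SIRT2 had all but H3K9cr, as did 9.22% of coding genes. SIRT4 had Y78A, wild type ENL and H3K9ac without H3K9bhb (1.48% of coding genes), and HDAC1 had wild type ENL, H3K9bhb and H3K9ac without Y78A (6.99%). SIRT1 and SIRT7 had wild type ENL and H3K9ac (6.25%). HDAC3 had H3K9bhb and H3K9ac without either ENL protein (2.96%). SIRT3, SIRT6 and HDAC2 had H3K9ac alone, which is the case at 24.7% of coding genes. By number of lists, 3 genes had 1 list (25.2% of coding genes), 3 had 2 (9.71%), 2 had 3 (8.98%), 1 had 4 (9.96%) and 1 had 5, while no deacylase gene was without a gene-end peak (42.8%). The named erasers of the mark were thus spread over several combinations, from SIRT2 with both ENL proteins and H3K9bhb to SIRT3 and HDAC2 with neither.

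**Figure D2:**
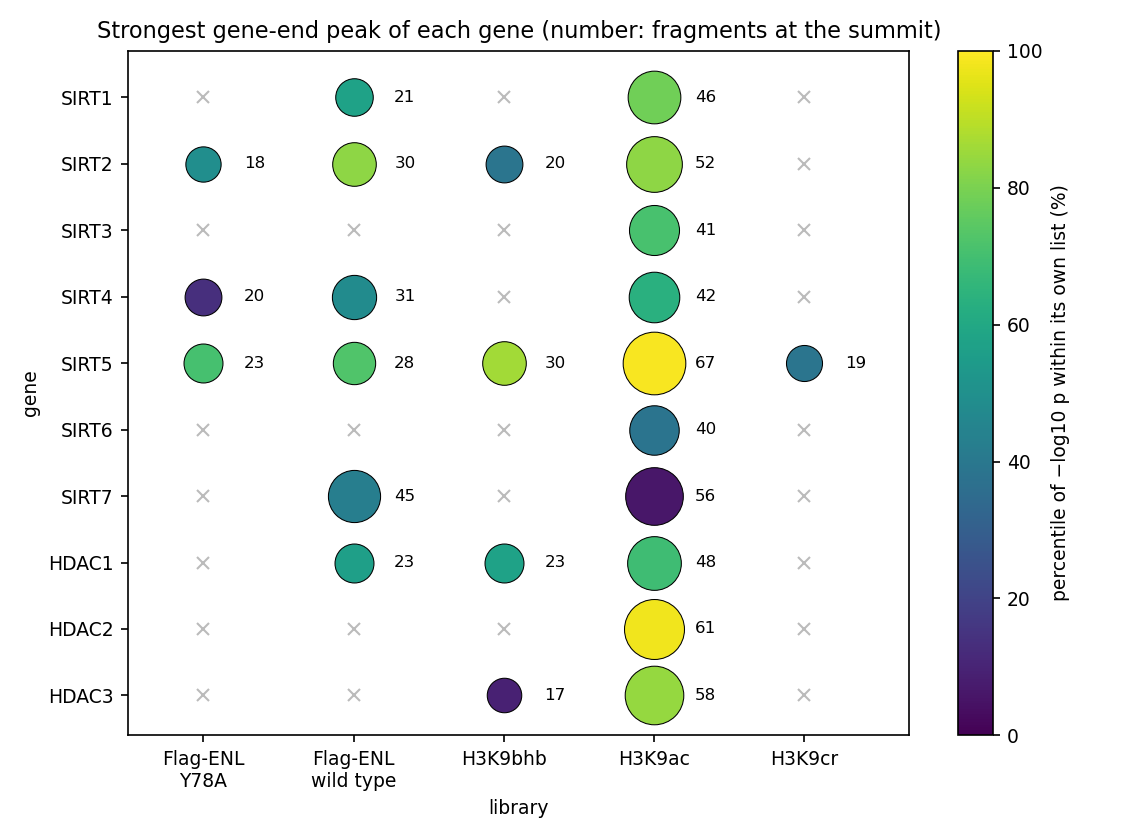
Strongest gene-end peak of each gene (rows) in each library (columns). Circles mark a peak, their area and the number beside them give the fragments at the summit, colour gives the percentile of −log10 p within that list, and crosses mark genes with no gene-end peak. SIRT5 is filled in every column, and SIRT3, SIRT6 and HDAC2 are filled only for H3K9ac.

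To show the promoters behind these combinations, the 250 bases before the annotated start are printed for 5 genes with ENL and then for 2 without. They come from RefSeq (GRCh38.p14, the assembly also called hg38), whose promoter table holds 12 entries for 9 of the 10 genes. Each reads 5′ to 3′ on the strand of the gene. Capitals mark matches to a searched motif on either strand, and matches that touch or overlap run together. Where a gene has several annotated starts, the first entry is shown.
SIRT5 (chr6:13574351-13574600, plus strand): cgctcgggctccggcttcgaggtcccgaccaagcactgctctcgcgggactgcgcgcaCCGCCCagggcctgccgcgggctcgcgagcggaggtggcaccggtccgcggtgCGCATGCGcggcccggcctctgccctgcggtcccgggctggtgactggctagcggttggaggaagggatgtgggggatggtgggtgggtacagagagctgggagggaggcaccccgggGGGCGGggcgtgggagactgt
SIRT2 (chr19:38899619-38899868, minus strand): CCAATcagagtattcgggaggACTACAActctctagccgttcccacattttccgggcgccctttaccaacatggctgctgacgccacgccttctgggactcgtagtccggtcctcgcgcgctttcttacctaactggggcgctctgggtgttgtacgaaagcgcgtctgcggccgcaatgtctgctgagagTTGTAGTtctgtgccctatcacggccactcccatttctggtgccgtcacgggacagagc
SIRT4 (chr12:120291939-120292188, plus strand): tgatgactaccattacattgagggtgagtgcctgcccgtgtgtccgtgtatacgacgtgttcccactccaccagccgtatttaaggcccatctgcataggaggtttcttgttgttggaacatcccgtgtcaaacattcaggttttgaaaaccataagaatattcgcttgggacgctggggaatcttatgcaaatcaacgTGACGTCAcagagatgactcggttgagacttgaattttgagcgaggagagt
SIRT1 (chr10:67884406-67884655, plus strand): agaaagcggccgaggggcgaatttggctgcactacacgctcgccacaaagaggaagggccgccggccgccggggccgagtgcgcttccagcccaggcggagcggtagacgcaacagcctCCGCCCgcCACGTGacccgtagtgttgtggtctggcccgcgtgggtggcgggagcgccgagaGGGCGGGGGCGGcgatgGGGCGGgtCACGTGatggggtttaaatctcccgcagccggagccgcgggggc
HDAC1 (chr1:32291833-32292082, plus strand): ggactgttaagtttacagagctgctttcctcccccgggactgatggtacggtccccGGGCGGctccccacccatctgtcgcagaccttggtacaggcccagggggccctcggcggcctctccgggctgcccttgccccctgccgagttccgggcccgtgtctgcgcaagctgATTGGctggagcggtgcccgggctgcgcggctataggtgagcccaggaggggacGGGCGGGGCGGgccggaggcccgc
HDAC3 (chr5:141636850-141637099, minus strand): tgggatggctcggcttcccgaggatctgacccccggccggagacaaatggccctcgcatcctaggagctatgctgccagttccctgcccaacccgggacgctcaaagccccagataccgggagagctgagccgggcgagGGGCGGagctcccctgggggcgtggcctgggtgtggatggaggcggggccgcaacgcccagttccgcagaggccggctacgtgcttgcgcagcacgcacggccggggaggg
HDAC2 (chr6:113971149-113971398, minus strand): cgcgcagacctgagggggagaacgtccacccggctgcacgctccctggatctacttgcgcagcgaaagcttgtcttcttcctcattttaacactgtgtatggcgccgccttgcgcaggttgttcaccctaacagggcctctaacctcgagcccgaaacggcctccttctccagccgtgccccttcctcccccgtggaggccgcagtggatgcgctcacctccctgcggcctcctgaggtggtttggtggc

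The motifs searched were the E-box CACGTG, the cAMP response element TGACGTCA, the GC box GGGCGG, the CCAAT box CCAAT, the NRF1 core CGCATGCG, the ETS core CTTCCGG, the TATA box TATAAA and the motif ACTACAA. They were chosen with the promoters in view, and a match is only a description. SIRT1 held the E-box at 2 places, starting 123 and 44 bases before the start, and 7.37% of 22199 promoter entries of coding genes hold it. SIRT4 held the cAMP response element 51 bases before the start (2.01% of entries). SIRT5 and SIRT6 held the NRF1 core (2.18%), SIRT2 held ACTACAA at 2 places (2.58%), and SIRT3 and SIRT6 held the ETS core (10.7%). GC boxes were found at SIRT1, SIRT5, SIRT6, HDAC1 and HDAC3, and 53.7% of entries have them. CCAAT was found at SIRT2, SIRT6 and HDAC1 (32.7%). Matches to the TATA box (9.005%) were found only at SIRT4, starting 220 and 150 bases before its downstream start. The printed HDAC2 stretch held none of the 8 motifs.

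The SIRT4 stretch had the lowest GC content of those printed. It was 47.2%, against 74.8% for SIRT5, 72% for SIRT1, 71.6% for HDAC1, 70.8% for HDAC3, 63.2% for HDAC2 and 58.4% for SIRT2, and a median of 62% over all entries. The SIRT4 stretch held 12 CpG dinucleotides and the SIRT1 stretch 32, around a median of 16. All 250 printed bases lay in a wild type ENL peak at SIRT5, SIRT2, SIRT4 and SIRT1, and 242 did at HDAC1. H3K9bhb peaks covered all 250 bases at SIRT5, SIRT2, HDAC1 and HDAC3.

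SIRT1 encodes the nuclear sirtuin that deacetylates histones and regulators of fasting metabolism. Its start had a wild type ENL peak of 379 bp on chromosome 10 (67884375 to 67884753), with 21 fragments at the summit (95% Poisson interval 13.0 to 32.1), the authors' fold of 5.75 and percentile 57.7. The summit lay 99 bp before the start, and no Y78A, H3K9bhb or H3K9cr peak was listed anywhere at the gene. H3K9ac covered 1072 bp across the start with 46 fragments (33.7 to 61.4, percentile 78.4), its summit 31 bp from the ENL summit. A second H3K9ac peak lay inside the gene, 1253 bp after the start, with 35 fragments. SIRT1 has no coding neighbour within 1 kb, so its peaks are not shared with another coding gene.

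SIRT2 encodes a mostly cytoplasmic sirtuin that deacetylates tubulin. Both ENL proteins and both H3K9bhb and H3K9ac sat on its start, where it is transcribed away from NFKBIB, an inhibitor of NF-κB, with 48 bp between the annotated starts. The Y78A peak had 18 fragments (10.7 to 28.4, fold 5.71, percentile 49.2), and the wild type peak had 30 (20.2 to 42.8, fold 6.96, percentile 83.1), which is the highest wild type percentile among the 10 genes. The Y78A and wild type summits were 53 bp apart. H3K9bhb had 20 fragments there (12.2 to 30.9, percentile 39.1) and H3K9ac had 52 (38.8 to 68.2, percentile 83.0). The Y78A, wild type and H3K9bhb summits lay nearer to the start of NFKBIB, at 100, 150 and 51 bp, than to that of SIRT2, at 251, 198 and 99 bp, whereas the H3K9ac summit was 34 bp from the SIRT2 start. A shared promoter does not allow these peaks to be given to either gene. At the far end a further H3K9ac peak with 33 fragments lay 219 bp from the start of RINL.

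SIRT3, the main deacetylase of mitochondria and a reported eraser of histone β-hydroxybutyrylation, had no ENL and no H3K9bhb peak. Its start is 45 bp from that of PSMD13, a proteasome subunit gene on the opposite strand. H3K9ac had 33 fragments (22.7 to 46.3, percentile 40.6) across the pair of starts. A second gene-end H3K9ac peak, 760 bp into the gene, was stronger, with 41 fragments (29.4 to 55.6, percentile 70.9). Inside the gene, 13039 bp from the start by the H3K9ac summit, H3K9cr and H3K9ac peaks overlapped on chromosome 11. H3K9cr (223769 to 224060) had 25 fragments (16.2 to 36.9) and percentile 80.3, and H3K9ac (223724 to 224026) had 29 fragments (19.4 to 41.6) and percentile 73.2. This was the strongest H3K9cr peak at any of the 10 genes, and no ENL or H3K9bhb peak overlapped it.

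SIRT4 encodes another mitochondrial sirtuin, known as a lipoamidase and as a regulator of glutamate dehydrogenase. The start had 2 Y78A peaks and 1 wild type peak, and no H3K9bhb. The wild type peak overlapped 178 of the 234 bp of the left Y78A peak and all 287 bp of the right one. On chromosome 12 the Y78A peaks (120291548 to 120291781 and 120292036 to 120292322) had 20 fragments (12.2 to 30.9, percentile 13.3) and 18 fragments (10.7 to 28.4, percentile 2.40), both among the weaker peaks of that list. The wild type peak (120291604 to 120292388) had 31 fragments (21.1 to 44.0, percentile 47.9) with its summit 86 bp after the start. H3K9ac was split into 5 peaks, of which the strongest, with 42 fragments (30.3 to 56.8, percentile 63.4), overlapped the start and the wild type peak. Another H3K9ac peak, with 32 fragments, lay 94 bp from the downstream start.

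The SIRT4 span also holds genes of the U4 spliceosomal RNA. RNU4-2 (120291759 to 120291903) lies at the 5′ edge of SIRT4, and all 145 bases of it were inside the wild type ENL peak. The left Y78A peak covered 23 bases of it, and the summit of that peak was 14 bp outside it. RNU4-1 (120293093 to 120293237) had no ENL peak, and an H3K9ac peak covered 45 of its bases. U4 genes are near-identical copies, so short fragments within them can map to more than one place, and how such reads were treated is not stated in the labels. Peaks at this end cannot be given to SIRT4 alone.

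SIRT5 is the mitochondrial enzyme that removes succinyl, malonyl and glutaryl groups. It stood out among the 10 genes by having 3 separate places with both ENL proteins, H3K9bhb and H3K9ac: the start, a site whose wild type summit lies 30625 bp into the gene, and the far end. At the start, on chromosome 6, the Y78A peak (13574508 to 13575219) had 23 fragments (14.6 to 34.5, percentile 70.6) and the wild type peak (13574184 to 13575364) had 28 (18.6 to 40.5, percentile 72.5). H3K9bhb (13574304 to 13575290) had 30 fragments (20.2 to 42.8, fold 6.16, percentile 86.3), the highest H3K9bhb percentile among the 10 genes, and its summit was 6 bp from an annotated start. H3K9ac had 67 fragments (51.9 to 85.1) at percentile 99.1, and H3K9cr had 19 (11.4 to 29.7) at percentile 38.9. The wild type peak was 1181 bp wide, and its summit lay 542 bp from the Y78A summit, 605 bp from that of H3K9bhb and 134 bp from that of H3K9cr. It also reached into LOC105374937, a long non-coding RNA gene on the opposite strand, whose start is 45 bp from the H3K9ac summit.

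The internal SIRT5 site carried a peak of every list. It lies within LOC105374938, an annotated long non-coding RNA gene inside SIRT5, and its wild type summit is 9976 bp from the nearest annotated start. Y78A (13604916 to 13605283) had 10 fragments (4.80 to 18.4, percentile 5.48), and wild type ENL (13605019 to 13605363) had 22 (13.8 to 33.3, fold 6.66, percentile 69.8). H3K9bhb had 20 fragments (12.2 to 30.9, percentile 60.5), H3K9ac 24 (15.4 to 35.7, percentile 44.6) and H3K9cr 18 (10.7 to 28.4, percentile 28.8). The Y78A, H3K9bhb, H3K9ac and H3K9cr summits lay 59, 65, 23 and 57 bp from the wild type summit, closer together than at the start. Of 8910 coding genes as long as the deacylase genes (6238 to 41544 bp), 85 had an internal wild type peak overlapped by the other 4 lists (0.954%). SIRT5, at 40885 bp, is near the top of that range, and the share among genes of its own length was not computed. The 10-fragment Y78A summit is near the floor of 8 fragments of that list. Inside the gene there were also 2 H3K9ac peaks with no other list, of 14 and 21 fragments.

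At the far end of SIRT5 the peaks face the start of NOL7, a nucleolar protein gene 176 bp away. Y78A had 20 fragments (12.2 to 30.9, fold 6.77, percentile 69.8) and wild type ENL had 21 (13.0 to 32.1, fold 4.72, percentile 40.6). H3K9bhb had 23 fragments (14.6 to 34.5, percentile 44.1), and H3K9ac had 69 (53.7 to 87.3, percentile 95.3) over 1974 bp, the widest peak at any of the 10 genes. The wild type and H3K9bhb summits were 13 and 58 bp from the NOL7 start, and the Y78A summit was 12 bp from the start of LOC124901263, a long non-coding RNA gene. H3K9cr was listed at the start and inside but not here.

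**Figure D3:**
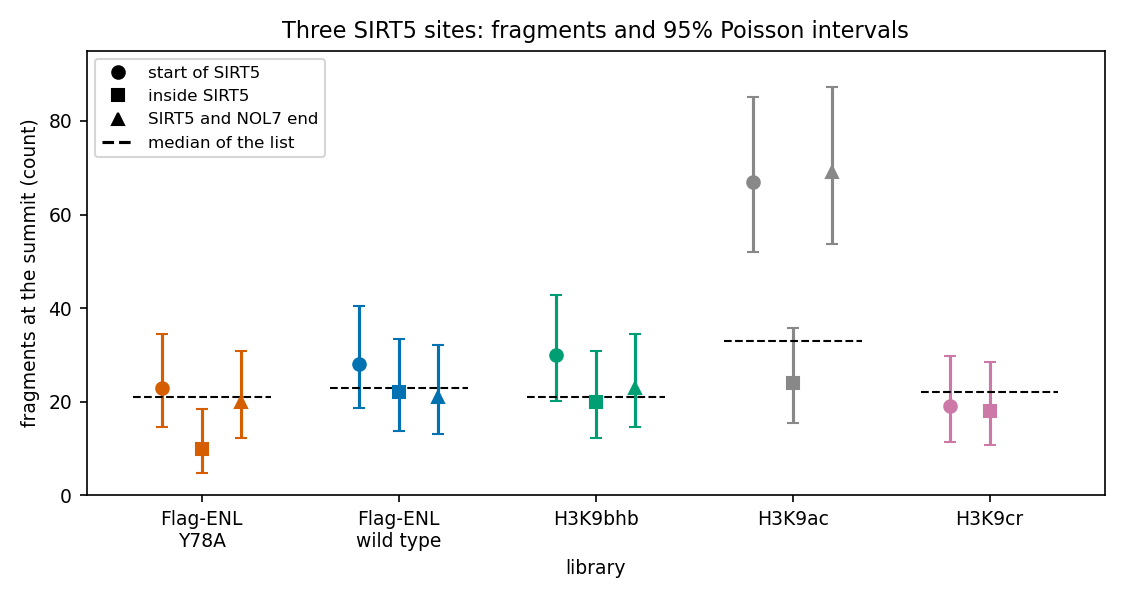
Fragments at the summit (y axis) of the start, internal and far-end peaks of SIRT5 in each library (x axis), with 95% Poisson intervals that cover counting error only. Dashed lines give the median summit of each whole list. H3K9ac at the start (67) and far end (69) lies far above the internal site (24), and H3K9cr has no far-end peak.

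SIRT6, a nuclear deacetylase of H3 lysine 9 among other sites, had only H3K9ac. A peak 282 bp from an annotated start, with 40 fragments (28.6 to 54.5, percentile 38.4), lay in the gene. A second, with 35 fragments (24.4 to 48.7, percentile 10.6), lay beyond the start and nearer to ANKRD24, whose start is 126 bp away on the opposite strand. SIRT7, a nucleolar sirtuin, had a wild type ENL peak of 45 fragments (32.8 to 60.2) at its lower-coordinate end on chromosome 17. Its fold was only 2.94 (percentile 42.2 by p and 3.85 by fold), and its summit was 239 bp from the start of PCYT2, an enzyme gene of phospholipid synthesis. Another wild type peak of 49 fragments lay 1282 bp outside SIRT7, beside an H3K9ac peak of 82 fragments and again near PCYT2. H3K9ac at the other SIRT7 end, towards MAFG, was weak, with 56 fragments (42.3 to 72.7) at a fold of 1.82 and percentile 6.15. The wild type and H3K9ac peaks of SIRT7 lay beyond opposite ends of the gene, with no base inside it, and did not overlap. The background behind them was 14.6 fragments for wild type ENL and 30.4 for H3K9ac.

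HDAC1 and HDAC2 encode the paired catalytic subunits of the SIN3, NuRD and CoREST corepressor complexes, and their starts carried different peaks. HDAC1 had wild type ENL on chromosome 1 (32291841 to 32292279) with 23 fragments (14.6 to 34.5, fold 5.27, percentile 55.9) and H3K9bhb (32291818 to 32292162) with 23 (14.6 to 34.5, fold 4.87, percentile 57.7). No Y78A peak was listed. The H3K9bhb and wild type peaks shared 322 bp, and their summits were 212 bp apart on either side of the start. H3K9ac covered 1307 bp with 48 fragments (35.4 to 63.6, percentile 69.1), and had an internal peak with 31 fragments and a far-end peak with 50 towards MARCKSL1.

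HDAC2 had a single peak in all 5 lists. It was an H3K9ac peak of 1628 bp across the start on chromosome 6 (113969952 to 113971579), with 61 fragments (46.7 to 78.4), a fold of 5.44 and percentile 97.7. The peak also overlaps HDAC2-AS2, a long non-coding RNA gene. Only SIRT5 had a stronger H3K9ac gene-end peak. Of the 1377 coding genes whose strongest gene-end H3K9ac peak is in the top 5% of that list, 35.4% had Y78A, 68.5% had wild type ENL, 71.3% had H3K9bhb and 19.7% had H3K9cr. HDAC2 and SIRT5 are both among these 1377 genes, and lie on opposite sides of that split.

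HDAC3, the catalytic subunit of the NCoR and SMRT corepressors, had H3K9bhb without ENL at its start. The H3K9bhb peak on chromosome 5 (141636788 to 141637104) was weak, with 17 fragments (9.90 to 27.2, fold 3.81, percentile 9.03). Its summit was 111 bp before the HDAC3 start and 37 bp from that of RELL2, which is transcribed the other way from 148 bp away. H3K9ac had 58 fragments (44.0 to 74.98, percentile 84.2), with its summit 34 bp from the HDAC3 start. Just outside the window at the far end, at the start of DIAPH1, an actin-nucleating formin gene, all lists but H3K9cr had a peak. These lay between 1510 and 1562 bp from HDAC3, with 15 fragments in Y78A, 16 in wild type ENL, 27 in H3K9bhb and 36 in H3K9ac.

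**Figure D4:**
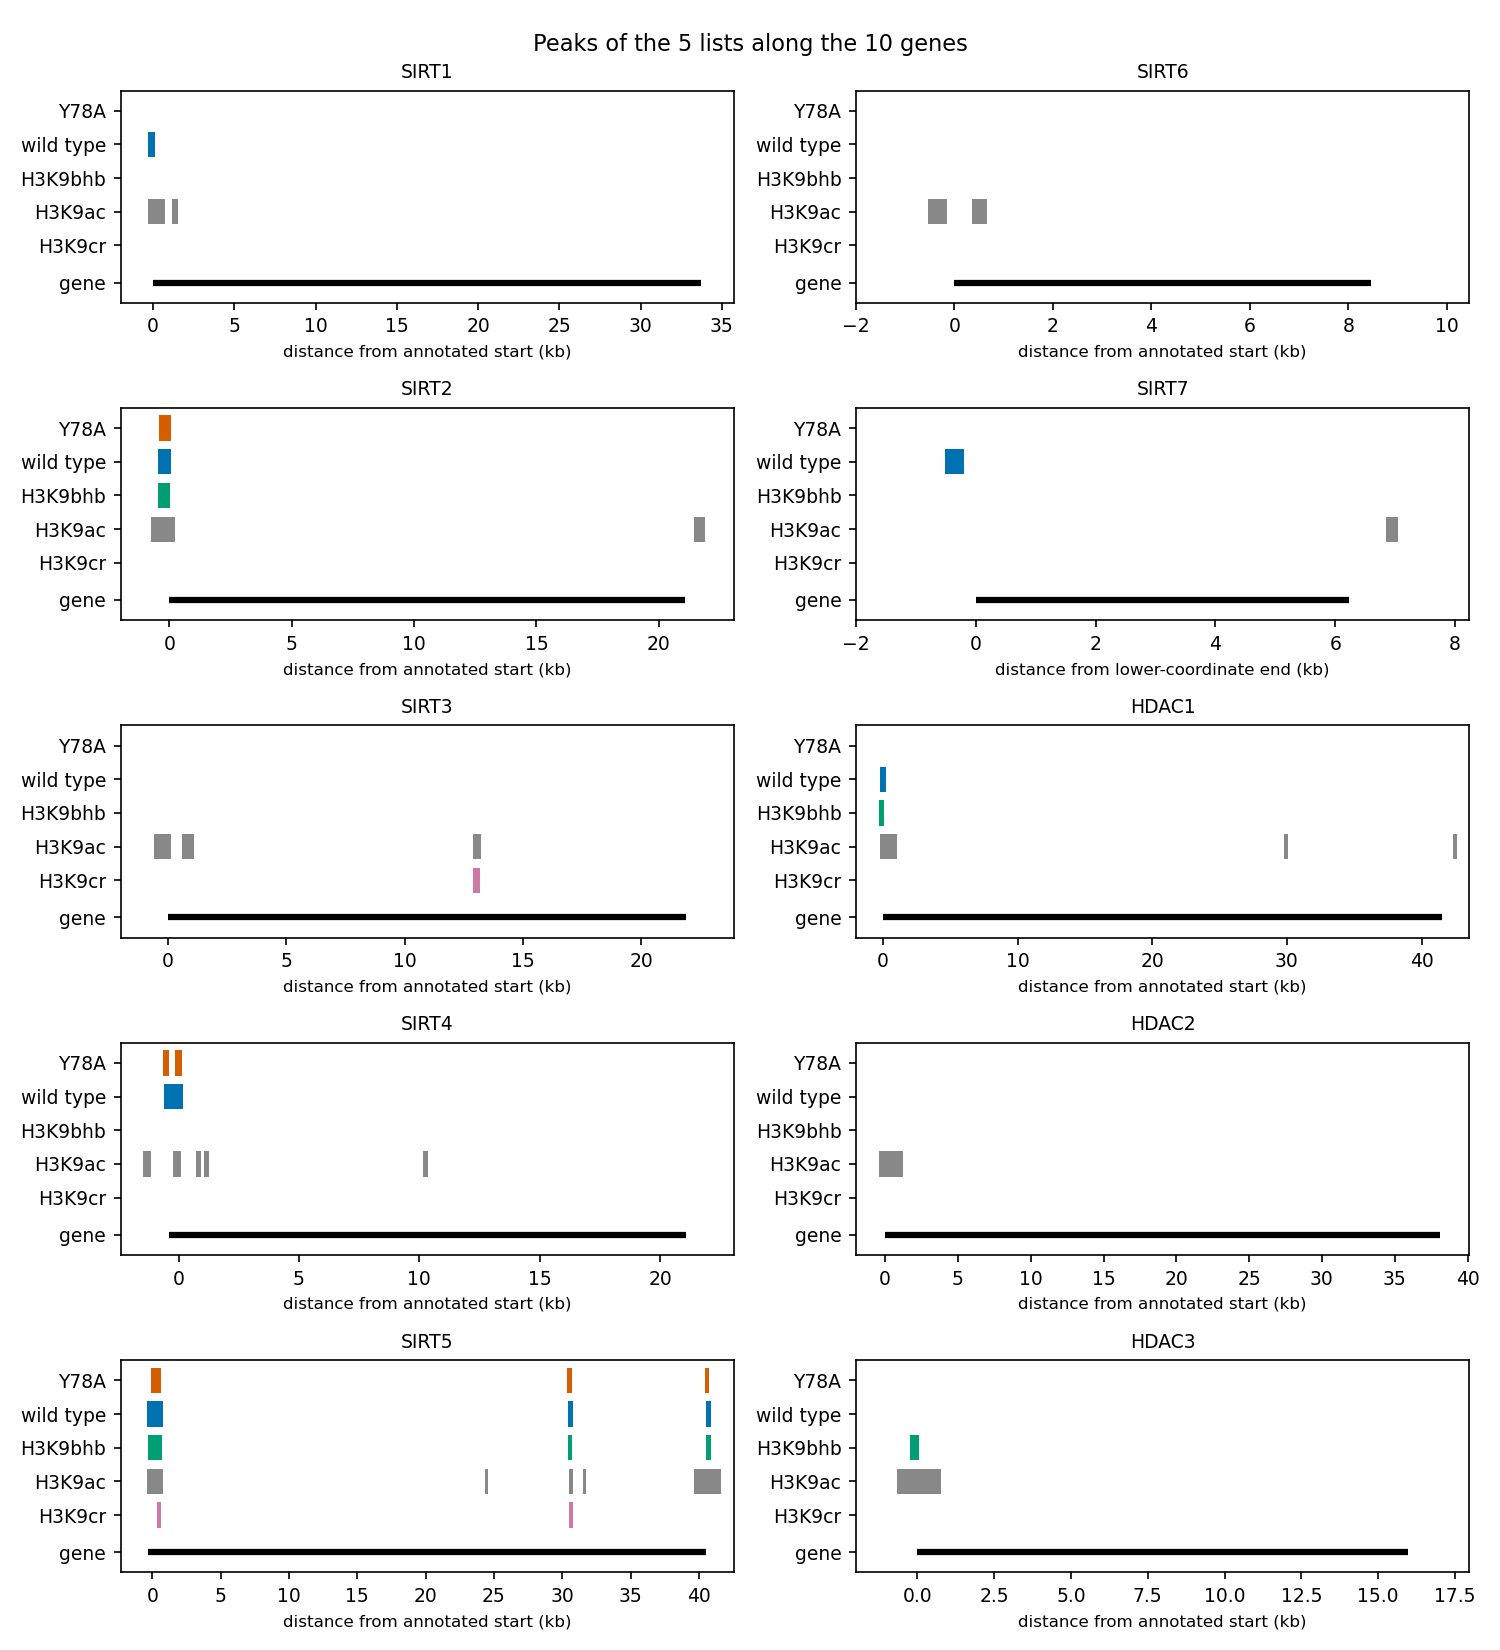
Peaks of the 5 lists (coloured bars) along each gene (black line), by distance from the first annotated start in kb, in the direction of transcription. SIRT7, without an entry in the promoter table, is drawn from its lower-coordinate end. ENL and H3K9bhb bars sit at gene ends, apart from the internal site of SIRT5.

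Y78A and wild type ENL were then set side by side. Wild type ENL was accompanied by Y78A at 3 of its 6 genes, against 49.8% of the 5734 coding genes that carry it. H3K9bhb was at 3 of the 6 (71.3%), H3K9ac at 6 (98%) and H3K9cr at 1 (14.4%). Among the 2517 coding genes whose strongest wild type gene-end peak lay within the percentile range of these 6 genes (42.2 to 83.1), 55.9% had Y78A. The genes with Y78A had wild type percentiles of 83.1 (SIRT2), 72.5 (SIRT5) and 47.9 (SIRT4). Those without it had 57.7 (SIRT1), 55.9 (HDAC1) and 42.2 (SIRT7), so the ranges overlap. No deacylase gene had Y78A without wild type ENL, which is the usual case: of 2934 coding genes with Y78A, 2853 also had wild type ENL. With 1 library of each protein, whether a missing Y78A peak reflects less Y78A cannot be tested.

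The 6 genes, with the 1 kb beyond their ends, held 8 wild type ENL peaks, and each was compared with the peaks of the other lists. Y78A overlapped 5 of the 8 and H3K9bhb also 5, against 42.9% and 59.8% of all wild type peaks. H3K9ac overlapped 7 of 8 (78.9% of all wild type peaks), the exception being the SIRT7 peak, and H3K9cr overlapped 2 of 8 (19.1%), both in SIRT5. Of the 5 peaks with Y78A, the 4 at SIRT2 and SIRT5 had H3K9bhb and the SIRT4 peak did not. Of the 3 without Y78A, HDAC1 had H3K9bhb and SIRT1 and SIRT7 did not. The share with H3K9bhb among all wild type peaks with or without Y78A was not computed, so this split is only a description. The 3 SIRT5 peaks belong to a single gene and are not independent.

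**Figure D5:**
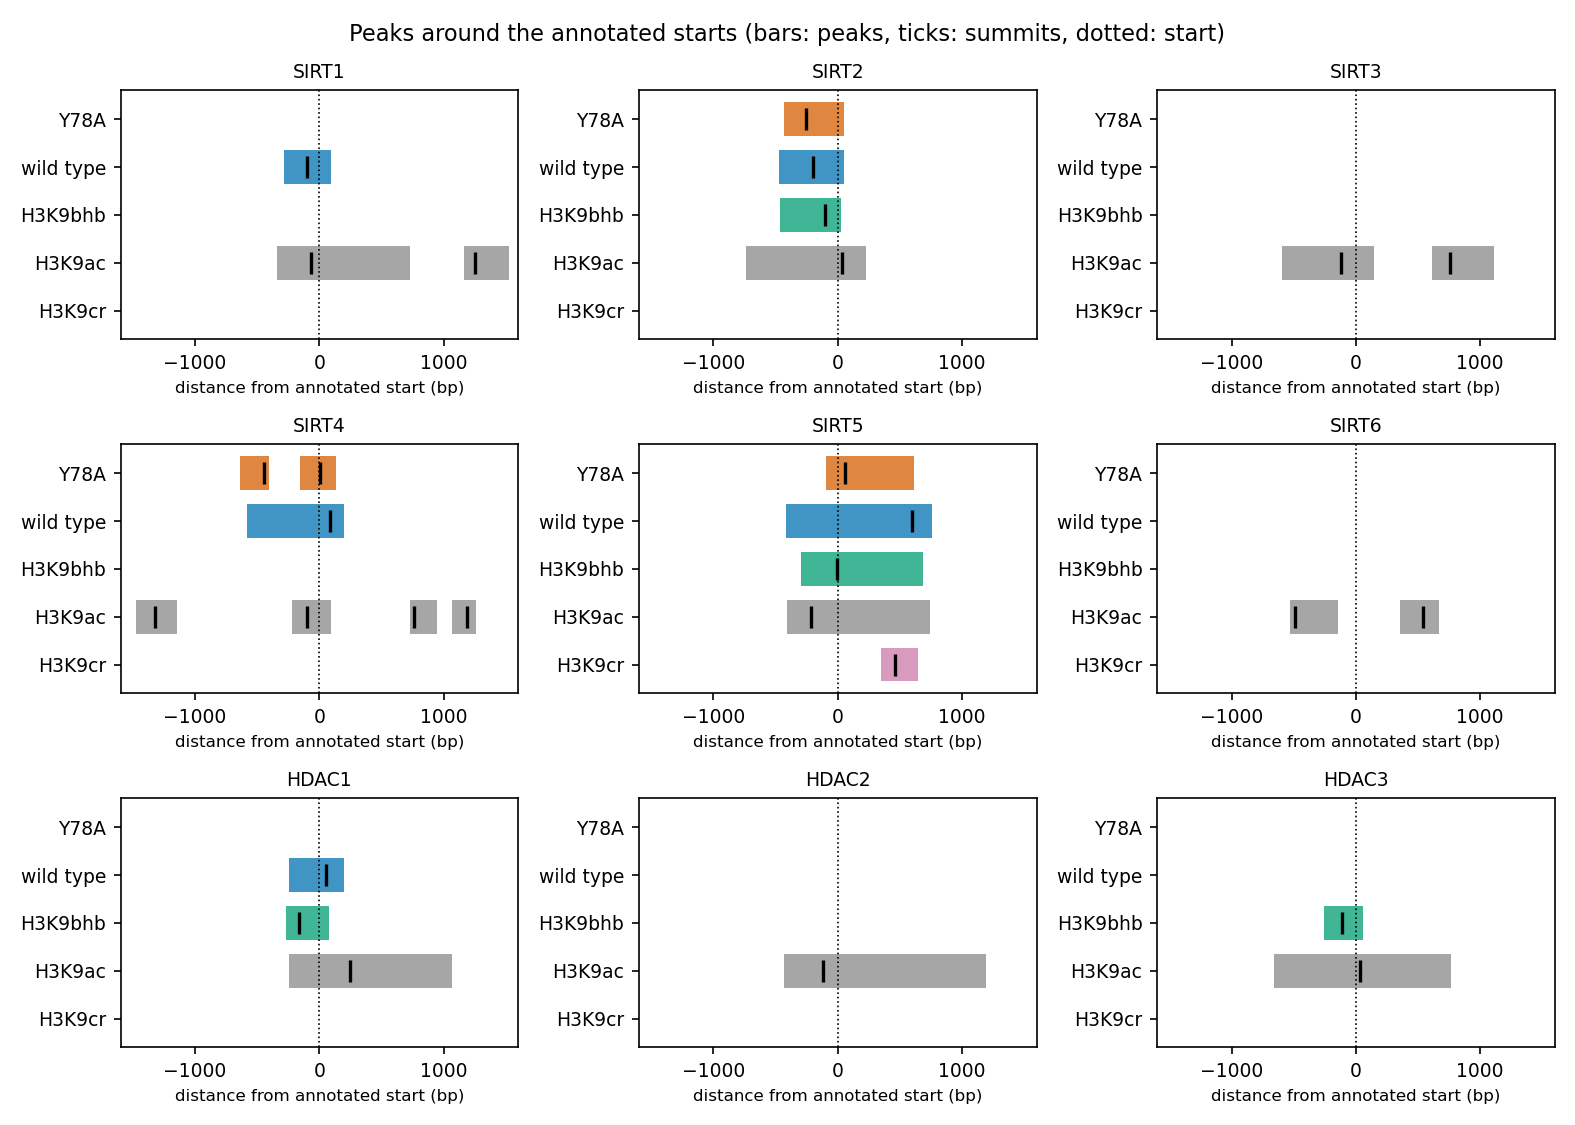
Peaks (bars) and summits (ticks) within 1.6 kb of the first annotated start (dotted line) of the 9 genes with a promoter entry, by distance in bp in the direction of transcription. H3K9ac bars are the widest at most starts, and they flank the start of SIRT6 without covering it.

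Many of these peaks lie between genes. Another coding gene lies within 1 kb of 7 of the 10 deacylase genes, against 38.9% of coding genes. At SIRT2, SIRT3, SIRT6 and HDAC3 the starts are between 45 and 148 bp apart. The share of coding genes with starts that close was not computed. When only peaks whose summit is nearest to a start of the gene itself were counted, a rule chosen after the values were seen, Y78A was at SIRT4 and SIRT5 and wild type ENL at SIRT1, SIRT4, SIRT5 and HDAC1. H3K9bhb was then at 2 genes, SIRT5 and HDAC1, and H3K9cr at SIRT5. H3K9ac was at 8 genes rather than 10, since the H3K9ac summits at the SIRT5 ends lay nearest to starts of LOC105374937 and NOL7, and SIRT7 was not counted. Over the 15843 coding genes with an entry in the promoter table, that rule gave 11.6% for Y78A, 23.3% for wild type ENL, 19.1% for H3K9bhb, 48.9% for H3K9ac and 3.45% for H3K9cr.

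Internal peaks were few outside H3K9ac. Y78A, wild type ENL and H3K9bhb each had internal peaks at 1 of 10 genes, SIRT5, where 3.95%, 7.93% and 6.11% of coding genes of like length have them. Like length means the range of the 10 genes, and SIRT5 is near its upper limit. H3K9cr had them at SIRT3 and SIRT5 (2.66%), and H3K9ac at SIRT1, SIRT3, SIRT4, SIRT5 and HDAC1 (23.3%). Counting peaks at the ends and inside together, H3K9cr was at 2 of 10 genes, against 9.34% of coding genes and 7.12% of those of like length. The other lists kept the genes they had at the ends, against 19.1% of coding genes for Y78A, 35.9% for wild type ENL, 31.2% for H3K9bhb and 64.8% for H3K9ac. Among coding genes of like length these shares were 19.3% for Y78A, 35.7% for wild type ENL, 30.2% for H3K9bhb and 68.6% for H3K9ac.

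Counts for genes of related function are read against the shares of all coding genes with a gene-end peak, 14.6% for Y78A, 28.6% for wild type ENL, 23.8% for H3K9bhb, 56.4% for H3K9ac and 4.49% for H3K9cr. Among coding genes with H3K9ac the shares were 25.6% for Y78A, 49.7% for wild type ENL, 41.6% for H3K9bhb and 7.78% for H3K9cr. These lists were not tested against other genes. Among the remaining 8 HDAC genes (HDAC4 to HDAC11), gene-end peaks of Y78A were at 3, wild type ENL at 4, H3K9bhb at 3, H3K9ac at 7 and H3K9cr at 2. Wild type ENL was thus at 50% of them, near its share among acetylated genes. HDAC4 and HDAC6, which encode a signal-regulated class II deacetylase and the cytoplasmic tubulin deacetylase, had all 5. At HDAC4 the strongest wild type peak had 42 fragments (percentile 92.3), and at HDAC6 34 (percentile 86.6), both above any wild type percentile of the 10 genes. HDAC5 had all but H3K9cr, HDAC11 had wild type ENL and H3K9ac, and HDAC7, HDAC8 and HDAC10 had H3K9ac alone. HDAC8, the remaining class I enzyme, thus had the same combination as HDAC2, and HDAC9 had no gene-end peak.

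Of 35 genes of subunits of class I HDAC complexes, Y78A was at 10, wild type ENL at 21, H3K9bhb at 14, H3K9ac at 32 and H3K9cr at 2. In percent of the 35 genes this is 28.6% for Y78A, 60% for wild type ENL, 40% for H3K9bhb, 91.4% for H3K9ac and 5.71% for H3K9cr. The strongest wild type peaks were at ARID4B, a SIN3 complex subunit, with 61 fragments (percentile 98.1), ING1, a SIN3 complex reader of methylated H3, with 80 (percentile 95.9), and SIN3A, the scaffold itself, with 40 (percentile 90.4). ARID4B and ING1 had Y78A and H3K9bhb too, and SIN3A had neither. Of 13 genes of NAD supply and use, which feed or compete with sirtuins, Y78A was at 4, wild type ENL at 5, H3K9bhb at 3, H3K9ac at 8 and H3K9cr at 1. Wild type ENL at 38.5% and H3K9ac at 61.5% of these genes compare with 28.6% and 56.4% of all coding genes. The wild type peaks were led by NAMPT, the salvage enzyme that sets NAD supply, with 27 wild type fragments (percentile 81.5), NMRK1 with 28 (percentile 78.1) and SLC25A51, the mitochondrial NAD carrier, with 36 (percentile 76.9). SLC25A51 had no Y78A and no H3K9bhb peak. Of 13 genes of proteins deacylated by sirtuins, Y78A, wild type ENL and H3K9bhb were at 4 each, H3K9ac at 10 and H3K9cr at 1. A count of 4 is 30.8% of the list, near the 28.6% of all coding genes with wild type ENL. The shares of all coding genes are 14.6% for Y78A and 23.8% for H3K9bhb, and those of coding genes with H3K9ac are 25.6% and 41.6%. HIF1A, GLUD1 and SOD2 had 44, 49 and 42 wild type fragments, with Y78A and H3K9bhb at all 3.

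The coding gene most like each of the 4 deacylase genes with peaks in at least 3 lists was found by the mean absolute difference of the 5 within-list percentiles of the strongest gene-end peak. It was INPP5K for SIRT2 (difference 1.63 percentile points), CADPS2 for HDAC1 (1.88), CARHSP1 for SIRT4 (2.88) and MEX3C for SIRT5 (3.77). CARHSP1 has no Y78A peak, whereas SIRT4 has a weak one.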

How the data were processed

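Peak lists of 5 CUT&Tag libraries of HepG2 cells were used, grouped by sample title with 1 library per group. The tools were MACS2, Bowtie2, FastQC and deepTools on hg38, per the submitters' processing notes, which give no version or setting. The sources used here name no control library, duplicate removal or mapping filter. The deposited interval positions and summit offsets are in bp. The deposited fold is the ratio of summit signal to the caller's background. Deposited p-values and q-values are on the −log10 scale. The deposited score restates the q. The smallest deposited −log10 q was 2.04 in Y78A, 2.05 in wild type ENL, 2.02 in H3K9bhb, 1.31 in H3K9ac and 1.34 in H3K9cr. Each peak's fold and p are the authors' own values, used only within a list.

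Peaks on the 24 standard chromosomes were set against RefSeq genes (GRCh38.p14) with Python 3.11.15, pandas 2.3.3, numpy 2.4.6 and scipy 1.17.1. Overlap required 1 bp. Summit fragments c and background b were solved from fold = (c + 1)/(b + 1) and the Poisson p, within a relative tolerance of 3e-05. Intervals are exact 95% Poisson intervals for counting error only. The overlap code was tested on shifted copies of wild type ENL peaks, and the fragment code on simulated counts. The table of promoters gave strand and starts, and exon structure was not used here. Other windows, thresholds, list lengths and overlap rules were tried. The genes, related lists, markers and motifs were chosen with earlier results of these data known. All 10 genes are described, and in each related list the genes with the strongest wild type gene-end peaks, at most 3, are named. Genes with the most similar pattern shared no gene-end peak with the gene they were set beside. The remaining HDAC genes, marker genes and neighbours of a peak were named after their values were seen.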

Additional observations from a re-analysis of the deposited data

How the results depend on the processing

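No paired analysis was possible because each group has 1 library and no fit was made. Over 11 alternative settings, 71 of 87 counts were within 1.5 times the value reported, and 16 were not. With −log10 q of at least 5, H3K9cr was at 0 genes at gene ends and at 1 gene (SIRT3) with internal peaks included, and the wild type peaks overlapped by Y78A and H3K9cr numbered 3 and 0 of 8. With windows of 500 bp H3K9cr was at 0 genes. H3K9ac at gene ends fell to 9 genes, without SIRT7, with windows of 500 bp and with −log10 q of at least 3. It fell to 8 genes, without SIRT6 and SIRT7, with −log10 q of at least 5. When no bases beyond the gene were counted, wild type ENL was at 5 genes and H3K9ac at 9, both without SIRT7. Windows around starts alone gave the same 5 and 9 genes, but SIRT7 has no annotated start in the promoter table. With all lists shortened to their 3852 strongest peaks, wild type ENL was at 2 genes (SIRT2 and SIRT5), H3K9bhb at 1 (SIRT5) and H3K9ac at 2 (SIRT5 and HDAC2), with or without internal peaks. Of the 3 wild type peaks then left, Y78A overlapped 2, H3K9bhb 2 and H3K9ac 1. That setting removes most of the longer lists by construction. H3K9bhb was at 2 genes when peaks nearer to another start were left out, a setting added after seeing the data. When most of a wild type peak had to be covered, H3K9cr overlapped 1 of the 8. The direct comparison of Y78A with wild type ENL gave between 2 and 4 shared genes, with HDAC3 added at 2500 bp. Depth limits what an absent peak can show, since the weakest listed summits hold 8 to 10 fragments.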
